A study of Mus musculus with 36 samples.

Results

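The comparison described here asks, gene by gene, whether CP2 changed RNA levels by a different amount in fat than in brain. CP2 is described by the labels as an inhibitor of mitochondrial complex I. All 36 libraries of the series entered it, 20 from brain and 16 from fat, and 22012 of the 43346 genes in the deposited table had enough reads to be tested. For each gene the log2 difference of CP2 minus vehicle was estimated in each tissue as the average of the male and the female difference, and the brain value was subtracted from the fat value. A positive difference therefore means that the change under CP2 was higher in fat than in brain.

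All mice were C57BL/6 and wild type, so that no allele separates the groups. Treated mice received CP2 at 25 mg/kg/day in drinking water that held 0.1% PEG, beginning at 21 months of age, and vehicle mice drank water with 0.1% PEG. They were profiled at 26 months, per the series design. Brain pieces were cross-sections holding hippocampus and cortex, with 5 libraries in each of the 4 groups of sex and treatment. The fat was the inguinal depot, with 5 vehicle and 4 CP2 libraries from males, and 4 vehicle and 3 CP2 libraries from females. Libraries are named by the number in their title, such as s540. Of 28 such numbers 8 occur in both tissues, and the labels do not state whether an equal number marks the same animal. Nothing in the labels says that each library is a separate animal, and if some are not, the p-values measure only the spread between these libraries.

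Complex I takes electrons from NADH, passes them to ubiquinone and pumps protons across the inner mitochondrial membrane. Electrons from NADH and from complex II meet in complex III and reach oxygen through complex IV, and the proton gradient drives ATP synthase. Most subunits of these complexes are encoded in the nucleus and a few in the mitochondrial genome. White fat, of which the inguinal depot is an example, stores triglyceride, makes fatty acids from citrate that leaves mitochondria, and can take on thermogenic traits. Neurons depend heavily on oxidative phosphorylation.

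Levels are given in CPM, gene counts scaled to a common library size of 1 M (mega) after the TMM method, which corrects for differences in library makeup. Totals of gene counts ran from 37.4 M to 53.0 M in brain and from 35 M to 56.4 M in fat. The adipocyte genes Adipoq, Plin1, Cidec and Fabp4 reached at least 240 CPM in every fat library and at most 2.13 CPM in any brain library. The brain genes Snap25, Slc17a7, Gad1 and Gfap were at 290 CPM or more in every brain library and at most 4.84 CPM in 15 of the 16 fat libraries. These markers match the labelled tissues with 1 exception, and do not show which brain regions a section held.

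The exception was fat male vehicle s540. Snap25, a presynaptic membrane protein, stood at 487 CPM there against 0.11 to 2.72 CPM in the other fat libraries. Mbp, a myelin protein, stood at 958 CPM against 68.6 to 151 CPM. Over the 128 genes with a mean of at least 100 CPM in brain and less than 1 CPM in each of the other 15 fat libraries, s540 held a median of 12.2% of the level in male vehicle brain (quartiles 7.92% and 18.4%). Adipoq in s540 was 3710 CPM, within the range of the other fat libraries. Each result below is given with all libraries, and beside it without s540 where the number of genes that passed in edgeR changed. List medians and counts of list members without s540 are given only in part.

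Other fat libraries also stood apart. Fat female vehicle s443 held Csn2, a milk casein, at 35300 CPM, while no other fat library passed 331 CPM. Fat male CP2 s530 had the lowest adipocyte score of the 4 male CP2 libraries, 9.36 against 10.3 to 10.4. A score is the mean of log2(CPM + 1) over the members of a gene list. Fat male CP2 s571 had the highest fatty acid synthesis score of the fat libraries, 10.4. In bulk tissue, fewer cells of a type and less RNA per cell cannot be told apart.

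**Figure D1:**
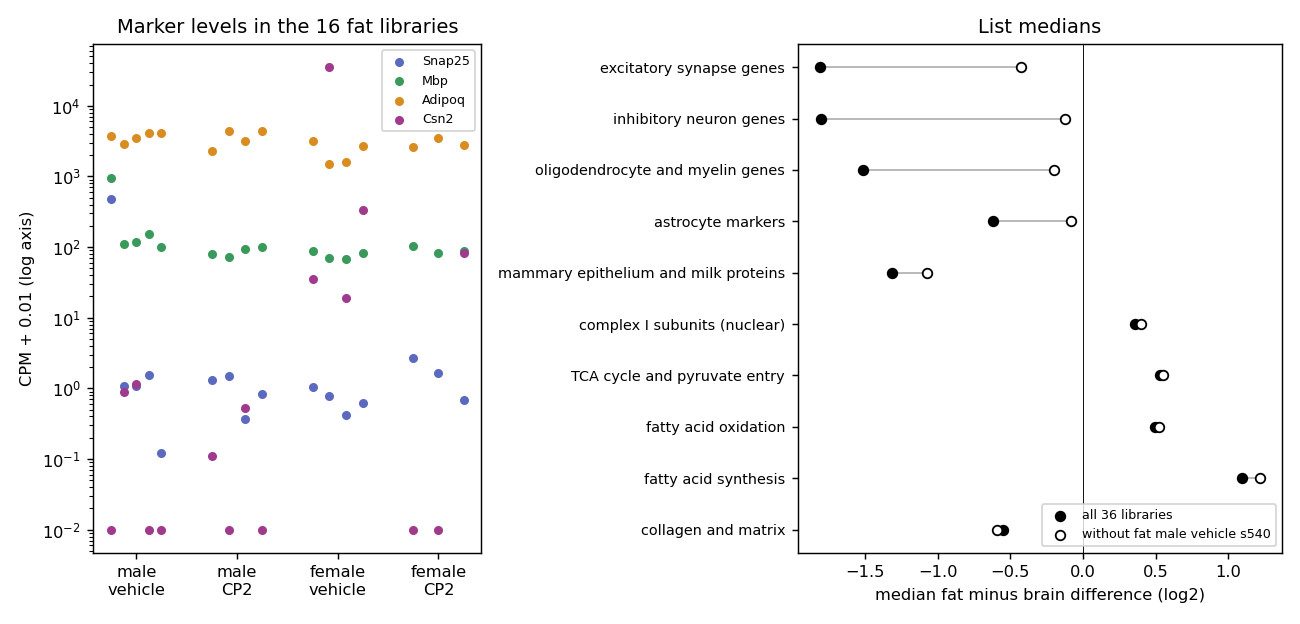
Left: CPM plus 0.01 on a log axis for the brain genes Snap25 and Mbp, the adipocyte gene Adipoq and the casein Csn2, 1 point per gene in each of the 16 fat libraries, by group. Right: median log2 fat minus brain difference of 10 gene lists with all 36 libraries (filled) and without s540 (open). The neuronal and myelin lists moved from at or below -1.51 to at or above -0.43 when s540 was left out, while the complex I median went from 0.36 to 0.40.

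At an adjusted p below 0.05 in edgeR's quasi-likelihood test with Benjamini-Hochberg adjustment, 34 of 22012 genes (0.154%) had a different CP2 effect in fat than in brain, 20 higher in fat (0.0909%) and 14 lower (0.0636%). The split moved with the scaling: with TMM within each tissue it was 53 higher and 17 lower, and with the RLE scaling of DESeq2 27 higher and 12 lower. In all 34 the change in fat was larger in size than the change in brain. Among genes at 1 CPM or more in both tissues, called or not, this held for 72%. The 34 were picked by the gap between the tissues, and fat had the wider spread, so the choice favours such genes. In the 34 the median absolute change was 1.04 on the log2 scale in fat and 0.0916 in brain. The largest brain change in the 34 was 0.479. The sign of the difference was the same in males and females for all 34, which choosing them by the average of the sexes favours. In 28 of the 34 the male difference was the larger in size, and no gene passed in females alone. Without s540, 158 of 22005 genes (0.718%) passed, 97 higher (0.441%) and 61 lower (0.277%), and these included the 34 called with all libraries. Of the 158, picked by the same gap, 155 had the larger change in fat.

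The call of single genes was sensitive to how the spread was modelled. When each tissue was fitted on its own, so that brain libraries did not contribute to the spread assumed in fat, 2 genes passed, Cnst and 4732419C18Rik, although all 34 had an unadjusted p below 0.05 in that fit. Leaving out 1 library at a time gave between 1 and 279 genes, the fewest without fat female CP2 s451 and the most without fat male CP2 s530. limma-voom called 3 genes (0.0136%), Kcnk3, Echdc1 and 4732419C18Rik. DESeq2 called 405 (1.84%), 173 higher in fat (0.786%) and 232 lower (1.05%).

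Among the 13794 genes at a mean of 1 CPM or more in both tissues, 613 had an estimated CP2 minus vehicle difference of more than 1 log2 unit in size in fat and 7 in brain, whether or not they passed a test. The fat change was the larger one for 72% of them. The standard errors were closer, with medians of 0.131 in fat and 0.115 in brain, but they come from a fit with 1 spread shared by both tissues. The biological coefficient of variation was 0.5 in fat fitted alone and 0.17 in brain fitted alone. Across these genes the fat and brain changes had Pearson r = -0.0311 and Spearman rho = -0.118. That is a description across genes, which are not independent replicates and share libraries. The fat mean behind the 1 CPM bound includes s540, so a brain gene can enter through that library alone. Slc17a7, for example, was 42.5 CPM in s540 and at most 0.38 CPM in the other fat libraries. The 613, the 72% and the correlations are given with s540 only. The median fat minus brain difference over all tested genes was -0.0768, and 40.0% of them lay above 0.

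**Figure D2:**
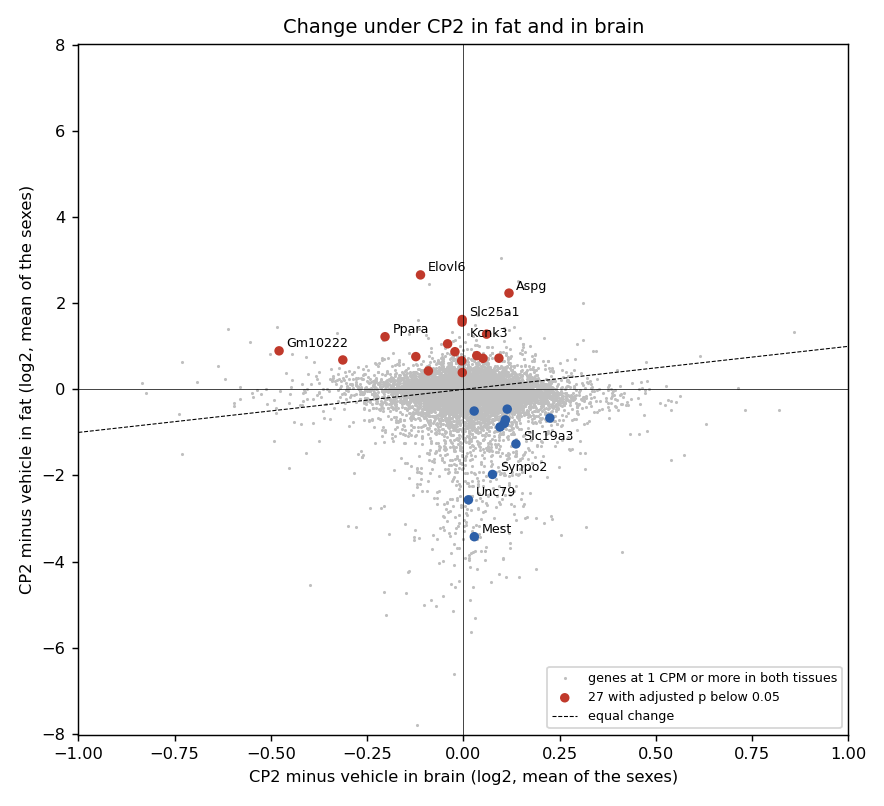
CP2 minus vehicle in brain (x axis) and in fat (y axis), log2, mean of the sexes, for genes at 1 CPM or more in both tissues; the x axis spans 1 log2 unit to each side and leaves out 7 genes, and the 2 axes have different scales. The 27 genes past the threshold (17 higher in fat, red; 10 lower, blue) lie farther from 0 along the fat axis than along the brain axis, and Gm10222 (-0.48 in brain) lies farthest from 0 in brain; the dashed line marks equal change.

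The genes that passed with a higher change in fat were led by Kcnk3, which encodes the potassium channel TASK-1 and is known as a gene of thermogenic adipocytes. In fat, Kcnk3 in the 5 male vehicle libraries was 18.2, 21.0, 23.5, 23.8 and 24.6 CPM, and in the 4 male CP2 libraries 34.8, 47.4, 69.6 and 144 CPM. In the 4 female vehicle libraries it was 5.97, 7.69, 8.08 and 10.5 CPM, and in the 3 female CP2 libraries 12.8, 15.8 and 35.1 CPM. Within each sex every CP2 library lay above every vehicle library. In brain Kcnk3 was 17 to 20.4 CPM with vehicle and 14.4 to 17.3 CPM with CP2 in males, and 17.6 to 20 CPM with vehicle and 17.6, 22.1, 22.7, 23.1 and 23.4 CPM with CP2 in females. The arms overlapped in each sex, with 4 of the 5 female CP2 brains above every vehicle brain. The brain change was -0.21 ± 0.24 in males and 0.21 ± 0.24 in females. The fat minus brain difference of Kcnk3 was 1.57 ± 0.26 (SE) on the log2 scale (edgeR adjusted p = 0.0143), made of a change of 1.56 in fat and, averaged over the sexes, -0.00 in brain. The gene lies on chromosome 5 at 30588170-30625270 (mm10). The predicted gene Gm9899, on the same chromosome at 30577467-30578025, also passed, with a difference of 1.99 ± 0.34 (adjusted p = 0.0147). Unlike Kcnk3, Gm9899 had a mean below 1 CPM in at least 1 tissue.

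Cnst encodes consortin, a protein of connexin transport. In male fat Cnst was 59.5 to 82.8 CPM with vehicle and 103 to 134 CPM with CP2 without overlap, and in female fat it was 44.4 to 64.6 CPM and 61.8 to 90.6 CPM, with overlap. Its difference of 0.67 ± 0.12 (edgeR adjusted p = 0.0193) was close in males (0.65) and females (0.69). In brain Cnst had medians of 59.7 CPM with vehicle and 59.5 CPM with CP2.

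Of the fatty acid synthesis list, Slc25a1, Elovl6 and Acacb passed. Slc25a1, the mitochondrial carrier that exports citrate to the cytosol for fatty acid synthesis, was 95.8, 131, 141, 168 and 219 CPM in male vehicle fat and 210, 330, 912 and 1760 CPM in male CP2 fat. In female fat it was 54.4 to 76.0 CPM with vehicle and 108 to 138 CPM with CP2. The sexes thus differed in level, but within females the arms did not overlap and within males 1 vehicle library reached above the lowest CP2 library. The difference was 1.63 ± 0.32 (edgeR adjusted p = 0.0368), with a brain change of -0.00. Elovl6, which lengthens palmitate to stearate, was 14.8 to 37.7 CPM in male vehicle fat and 71.2, 91.6, 459 and 1740 CPM in male CP2 fat. In female fat Elovl6 was 22.9 to 61.3 CPM with vehicle and 46.1 to 99.0 CPM with CP2. Its difference was 2.77 ± 0.51 (adjusted p = 0.0217). Acacb, the acetyl-CoA carboxylase of the mitochondrial surface, had a difference of 1.22 ± 0.27 (adjusted p = 0.0459), with 74.3 to 465 CPM in vehicle fat and 123 to 1020 CPM in CP2 fat. All 3 of these passed without s540 as well. Hsd17b12, a reductase in the elongation of fatty acids, had a difference of 0.88 ± 0.18 (adjusted p = 0.0449). Echdc1, which removes ethylmalonyl-CoA made by side reactions of acetyl-CoA carboxylase, differed by 1.10 ± 0.23 (adjusted p = 0.0422). Coasy, which completes coenzyme A synthesis, differed by 0.75 ± 0.16 (adjusted p = 0.0458).

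Ndufa6, Dlat, Acadvl and Grpel1, whose products act inside mitochondria, also passed. Ndufa6, an accessory subunit of complex I, was 62.8 to 77.9 CPM in male vehicle fat and 91.2 to 106 CPM in male CP2 fat, and 53.7 to 70.8 CPM against 75.5 to 88.8 CPM in female fat. The arms did not overlap in either sex. In brain Ndufa6 was 57.3 to 93.0 CPM with vehicle and 57.5 to 78.5 CPM with CP2. Its difference was 0.52 ± 0.11 (edgeR adjusted p = 0.0458), with a fat change of 0.43 and a brain change of -0.09. Dlat, the E2 subunit of pyruvate dehydrogenase, was 71.0 to 146 CPM in vehicle fat and 112 to 367 CPM in CP2 fat, with a difference of 0.90 ± 0.19 (adjusted p = 0.0458). Acadvl, the first enzyme of very-long-chain fatty acid oxidation, was 177 to 382 CPM in vehicle fat and 299 to 619 CPM in CP2 fat, while brain stayed within 39.0 to 57.9 CPM in both arms. Its difference was 0.67 ± 0.14 (adjusted p = 0.0458). Grpel1, the nucleotide exchange factor of mitochondrial Hsp70, differed by 0.39 ± 0.09 (adjusted p = 0.0461).

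Ppara, the receptor that drives fatty acid oxidation genes, was 3.88 to 15.8 CPM in vehicle fat and 10.1 to 44.7 CPM in CP2 fat. In females every CP2 library was above every vehicle library, and in males the arms overlapped. The difference was 1.43 ± 0.30 (edgeR adjusted p = 0.0458). It was 2.23 in females and 0.62 in males, a gap that did not pass its own test (adjusted p = 0.543).

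**Figure D3:**
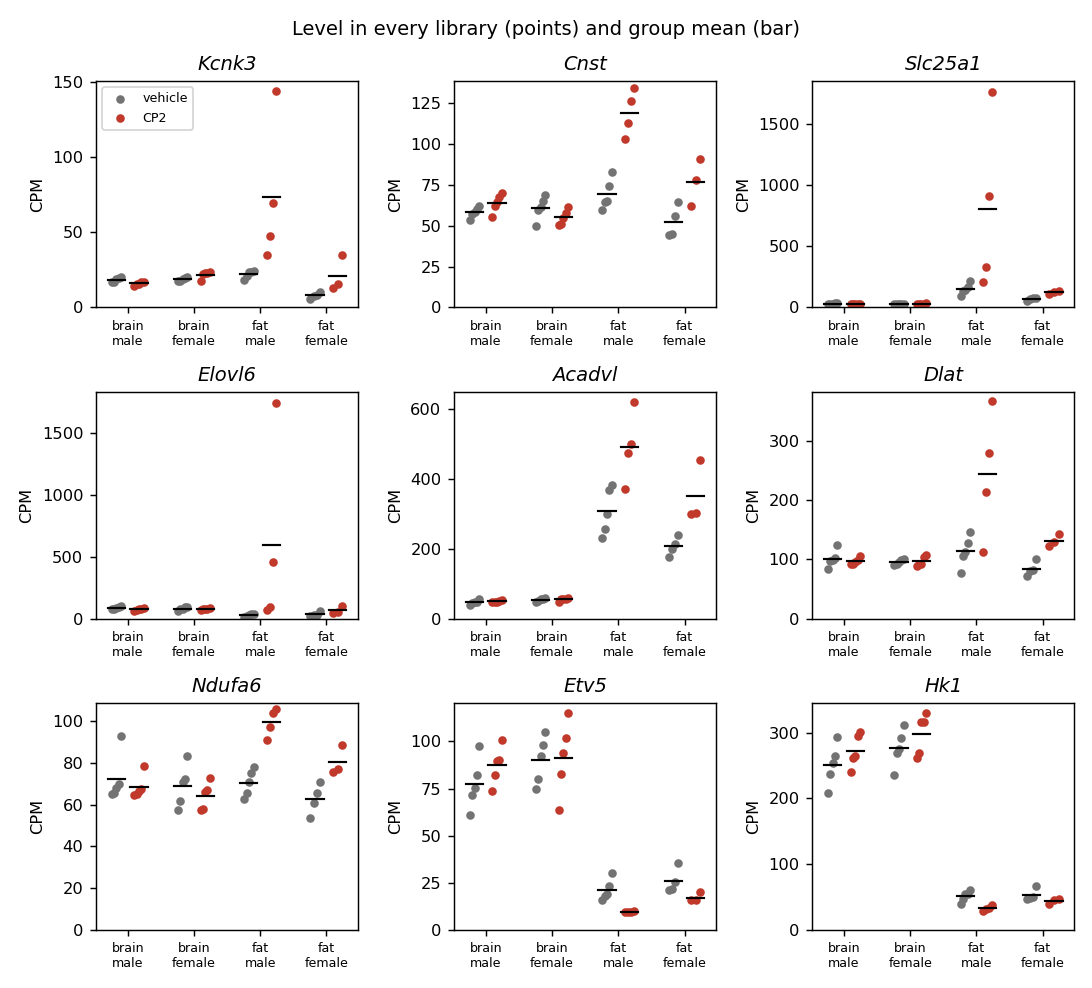
CPM of 9 genes in every library (points; vehicle grey, CP2 red) with the group mean (bar), by tissue and sex; each axis starts at 0. In fat, Kcnk3 CP2 libraries sit above vehicle libraries within each sex and Etv5 and Hk1 CP2 libraries sit below them, while the brain arms of all 9 genes overlap.

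The genes that passed with a lower change in fat were led by Etv5. Etv5, an ETS transcription factor downstream of FGF signalling, was 15.8 to 30.0 CPM in male vehicle fat and 9.50 to 9.73 CPM in male CP2 fat, and 21.3 to 35.5 CPM against 15.6 to 19.8 CPM in females. The arms did not overlap in either sex. Its difference was -0.97 ± 0.18 (edgeR adjusted p = 0.0193), and brain levels were 61.2 to 115 CPM over both arms. Mest, an imprinted gene linked to fat cell expansion, was 25.3, 98.1, 158, 288 and 1160 CPM in male vehicle fat and 2.81, 2.84, 3.38 and 23.8 CPM in male CP2 fat. In females Mest was 76.0 to 374 CPM with vehicle and 73.4 to 124 CPM with CP2. Its difference was -3.45 ± 0.67 (adjusted p = 0.0362). Arrb1, beta-arrestin 1, which turns off G protein-coupled receptors, was below the vehicle range in every CP2 fat library of its sex, with a difference of -0.53 ± 0.11 (adjusted p = 0.0362).

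Hk1, the hexokinase typical of brain, was 39.2 to 60.3 CPM in male vehicle fat and 28.5 to 38.3 CPM in male CP2 fat, and 47.2 to 66.3 CPM against 39.4 to 46.3 CPM in females. The difference was -0.57 ± 0.12 (edgeR adjusted p = 0.0459), with -0.46 in fat and 0.11 in brain. Plk3, a stress-responsive kinase, differed by -0.89 ± 0.19 (adjusted p = 0.0459), and its CP2 libraries also lay below the vehicle libraries in both sexes. Src, the tyrosine kinase, differed by -0.90 ± 0.19 (adjusted p = 0.0458). Slc19a3, a thiamine transporter, differed by -1.40 ± 0.29 (adjusted p = 0.0419). Synpo2, an actin-bundling protein of smooth muscle, was 16.5 to 34.4 CPM in male CP2 fat and 88.9 to 615 CPM in male vehicle fat, and overlapped in females. It differed by -2.05 ± 0.44 (adjusted p = 0.0458). Synj2, an inositol phosphatase, differed by -0.82 ± 0.18 (adjusted p = 0.0458). Unc79, a subunit of the sodium leak channel that is high in brain (mean 68.2 CPM), differed by -2.58 ± 0.51 (adjusted p = 0.0362). All of these passed without s540 too.

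Below 1 CPM in a tissue, 3 genes passed with a higher change in fat and 4 with a lower one. Apoc3, an apolipoprotein, had medians of 1.16 CPM in vehicle fat and 5.44 CPM in CP2 fat, with a difference of 2.19 ± 0.46 (edgeR adjusted p = 0.0458). Gpr3, a receptor that signals without a ligand and drives thermogenesis in brown fat, was at 0 in 6 of the 7 CP2 fat libraries and at most 0.925 CPM in vehicle fat, where the highest library was s540. Its fitted difference of -4.83 rests on very few reads and is no measure of size.

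Gene lists of the respiratory chain and of metabolism were then described by how many members lay above 0, beside the 40.0% of all genes. This background was 43.5% without s540. The median of all genes ran from -0.0768 to -0.00512 over the main fit and 12 other settings. The lists were chosen with earlier results of these data known, so their counts are descriptions. limma-voom called no member of any list except Kcnk3, and the numbers called by DESeq2 are given beside edgeR's. Of the 36 nuclear complex I subunits, 36 had a higher CP2 change in fat than in brain, with a median difference of 0.36. The medians were 0.38 in fat and 0.00 in brain. Of these 36, 1 passed the test over all genes (Ndufa6) and 22 (61.1%) had an unadjusted p below 0.05 in that direction, against 4.35% of all genes. That 4.35%, and 9.16% for lower genes, are the background of all such counts below with all libraries. Ndufa12 (0.51 ± 0.14), Ndufv2 (0.54 ± 0.15) and Ndufb5 (0.52 ± 0.15), with edgeR adjusted p from 0.1 to 0.109, were next. Ndufs4, an accessory subunit needed for full assembly, differed by 0.49 ± 0.18, and Ndufv1, which binds NADH, by 0.33 ± 0.14. Neither passed (adjusted p = 0.225 and 0.291). DESeq2 called 6 subunits. Without s540, 6 subunits passed in edgeR and the median was 0.40. Over 48 alternative settings, the ones that leave out a library included, the complex I median ran from 0.28 to 0.49. The lowest came from the fit with the number in the title as a term. Of the 14 complex I assembly factors, 13 lay above 0 with a median of 0.19, and none passed in edgeR, with 3 at an unadjusted p below 0.05 and 1 called by DESeq2. Without s540, 1 assembly factor passed (Ndufaf4).

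The remaining complexes had the same direction. All 4 complex II subunits lay above 0 with a median of 0.47, and Sdha, the flavoprotein, was at 0.54 ± 0.14 (edgeR adjusted p = 0.0926). All 9 complex III subunits lay above 0 with a median of 0.52, led by the iron-sulfur protein Uqcrfs1 at 0.65 ± 0.15 (adjusted p = 0.0616). All 12 members of the complex IV and cytochrome c list lay above 0 with a median of 0.44, and Cycs, cytochrome c, was at 0.76 ± 0.22 (adjusted p = 0.125). Of 16 ATP synthase subunits, 14 lay above 0 with a median of 0.38. No member of these 4 lists passed in edgeR with all libraries, and 33 of the 41 had an unadjusted p below 0.05 with a higher change in fat. DESeq2 called 3 members of complex II, 4 of complex III, 2 of complex IV and 2 of ATP synthase. Without s540, 1 complex II subunit (Sdha) and 2 complex III subunits (Uqcrfs1 and Uqcrh) passed.

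Enzymes that feed the chain followed. Of 21 TCA cycle and pyruvate entry genes, 20 lay above 0 with a median of 0.53, and 1 passed (Dlat), with 20 at an unadjusted p below 0.05 and 9 called by DESeq2. Idh3b, a subunit of isocitrate dehydrogenase, was at 0.50 ± 0.12 (edgeR adjusted p = 0.0687), and Pdha1, the E1 subunit of pyruvate dehydrogenase, at 0.76 ± 0.19 (adjusted p = 0.0837). Both passed without s540, so that 3 of the list did. Of 22 fatty acid oxidation genes, 21 lay above 0 with a median of 0.49, and 1 passed (Acadvl), with 8 called by DESeq2. Without s540, 4 passed (Acadvl, Etfdh, Slc25a20 and Acadl). Of 18 genes of branched-chain amino acid breakdown, 17 lay above 0 with a median of 0.37, and none passed in edgeR, with 8 higher and 1 lower at an unadjusted p below 0.05 and 1 called by DESeq2. The 1 lower member was Bcat1, the cytosolic transaminase, at -1.17 ± 0.32 (adjusted p = 0.106). All 36 genes of the mitochondrial ribosome and translation list lay above 0 at a smaller median of 0.20, and none passed in edgeR, with 12 at an unadjusted p below 0.05 and 3 called by DESeq2. Without s540, 1 passed (Mrpl30). Hspa9, the mitochondrial Hsp70 that works with Grpel1, was at 0.57 ± 0.13 (adjusted p = 0.0687) and passed without s540.

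The score of the TCA cycle list was 7.08 to 7.95 (median 7.66) in the 9 vehicle fat libraries and 7.58 to 8.82 (median 7.93) in the 7 CP2 fat libraries. In brain it was 6.99 to 7.19 with vehicle and 7.04 to 7.16 with CP2. The fat ranges overlapped, and the highest CP2 library was s571. Without s571 the median differences were 0.29 for complex I, 0.46 for the TCA cycle and 0.45 for fatty acid oxidation, all still above 0, and 0.13 for the mitochondrial ribosome list against 0.20 with it. The titles also carry a number after the letter L, which the labels do not explain. Brain male vehicle libraries carry only L1 or L2, and 4 of the 5 brain male CP2 libraries carry L6, so that this number and the treatment are partly confounded there. The same holds in female fat, where CP2 libraries carry only L1 or L2 and vehicle libraries carry L1, L3 or L4. With that number as a term within each tissue the medians were 0.49 for complex I and 0.68 for the TCA cycle, and 1 gene passed in the whole table, lower in fat (Homer3, named after its value was seen).

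The adipocyte marker list had the same sign. Of its 20 members 18 lay above 0 with a median difference of 0.29, and none passed in edgeR or DESeq2, with 1 at an unadjusted p below 0.05. The adipocyte score was 8.64 to 10.3 in vehicle fat and 9.36 to 10.4 in CP2 fat. With the L number as a term that median was -0.01. The list's part in the mitochondrial results was not tested. Adipoq, the adiponectin gene, was at 0.23 ± 0.75 (adjusted p = 0.969), and Lep, the leptin gene, at -2.93 ± 1.62 (adjusted p = 0.441) with 171 to 3100 CPM over the fat libraries.

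**Figure D4:**
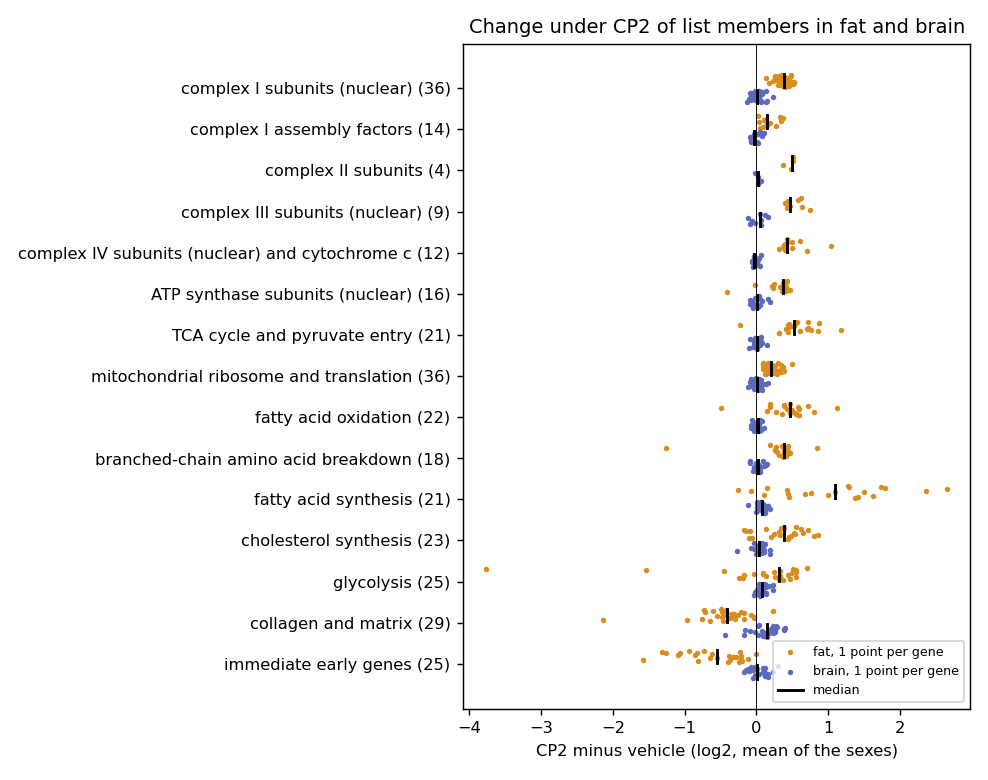
CP2 minus vehicle, log2, mean of the sexes, for each member of 15 gene lists in fat (orange) and brain (blue), with the median as a bar and the number of genes in parentheses. The medians of the mitochondrial lists lie right of 0 in fat and near 0 in brain; those of the collagen (-0.41) and immediate early (-0.54) lists lie left of 0 in fat.

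Fatty acid synthesis had the highest median of the lists drawn, 1.09, with 18 of 21 genes above 0, 3 that passed and 8 called by DESeq2. Fasn, fatty acid synthase, was 305 to 2310 CPM in male vehicle fat and 1650 to 30300 CPM in male CP2 fat, and 213 to 640 CPM against 650 to 885 CPM in female fat. Its difference of 2.20 ± 0.51 missed the threshold (edgeR adjusted p = 0.0657) and passed without s540, as the fourth of the list. The list median was 1.75 in males and -0.00 in females, and no gene in the table passed the test of the sex difference. The scores in male CP2 fat were 7.47, 8.12, 9.19 and 10.4 against 7.20 to 7.74 with vehicle, and in female fat 7.08 to 7.58 against 6.64 to 7.34. The male libraries s571 and s612 stood highest, and without s571 the list median was 0.75. Of 23 cholesterol synthesis genes 18 lay above 0 with a median of 0.31, none passed in edgeR or DESeq2 and 4 had an unadjusted p below 0.05. Without s571 that median was -0.10, so that its sign rested on this library. By sex the cholesterol list median was 0.65 in males, with 21 of 23 above 0, and -0.17 in females, with 2 of 23 above 0. Of 25 glycolysis genes 18 lay above 0 with a median of 0.21, and 1 passed with the opposite sign (Hk1), while DESeq2 called 2. Pdk1, which shuts pyruvate dehydrogenase by phosphorylation, was at 0.47 ± 0.10 (adjusted p = 0.0512) and passed without s540.

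Genes of thermogenic fat were uneven. Of 20 members 14 lay above 0 with a median of 0.42, Kcnk3 passed and DESeq2 called 4. Without s540, 3 passed (Kcnk3, Cidea and Elovl3) and the median was 0.61. Cidea, a lipid droplet protein, was 11 to 51.1 CPM in male vehicle fat and 114 to 205 CPM in male CP2 fat without overlap, and 1.17 to 27.7 CPM against 7.36 to 154 CPM in females. Its difference of 2.37 ± 0.63 did not pass with all libraries (edgeR adjusted p = 0.0962). Elovl3, an elongase of brown fat, was at most 1.06 CPM in vehicle fat and 0.156 to 15.7 CPM in CP2 fat, with a difference of 5.65 ± 1.52 (adjusted p = 0.0985). Ucp1, the uncoupling protein, was at most 0.444 CPM in male CP2 fat, and in female CP2 fat it was 0.111, 24.8 and 99.2 CPM against 0.0481 to 2.52 CPM with vehicle. Its difference was 3.44 ± 1.39 (adjusted p = 0.267). Ppargc1a, the coactivator of mitochondrial biogenesis, was at 0.36 ± 0.25 (adjusted p = 0.572). Of the 21 biogenesis and AMPK genes, 12 lay above 0 with a median of 0.04, and none passed in edgeR or DESeq2, with 1 at an unadjusted p below 0.05. Prkaa2, a catalytic subunit of AMPK, was at 0.26 ± 0.28 (adjusted p = 0.768).

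Other lists lay mostly below 0, the collagen and matrix list and the immediate early list among them. None of the 29 collagen and matrix genes lay above 0, the median was -0.55, and none passed in edgeR, with 7 (24.1%) lower at an unadjusted p below 0.05, against 9.16% of all genes, and 1 called by DESeq2. The medians were -0.41 in fat and 0.14 in brain, where 24 of the 29 lay above 0. Thbs1, thrombospondin 1, was at -2.16 ± 0.56 (edgeR adjusted p = 0.0926) and passed without s540. Col1a2, a chain of type I collagen, was at -0.99 ± 0.34 (adjusted p = 0.192). Of 25 immediate early genes 1 lay above 0 with a median of -0.60, and none passed in edgeR, with 10 (40.0%) lower at an unadjusted p below 0.05, against the same 9.16%, and 3 called by DESeq2. Cyr61, a matricellular protein of YAP signalling, was at -1.42 ± 0.35 (adjusted p = 0.0774) and passed without s540. Fos was at -0.99 ± 0.47 (adjusted p = 0.359). The collagen score was 6.62 to 7.84 in vehicle fat and 5.84 to 7.25 in CP2 fat.

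Markers of other cells in the fat piece are given beside these lists. Of 16 smooth muscle and Schwann markers 3 lay above 0 with a median of -0.55, 1 passed (Synpo2) and DESeq2 called 2. Their score was 4.33 to 5.66 in vehicle fat and 3.62 to 5.02 in CP2 fat. Of 15 fibroblast and progenitor markers 4 lay above 0 with a median of -0.19. Of these 15, 3 (20%) were lower at an unadjusted p below 0.05, against 9.16% of all genes. Of 23 macrophage and microglia markers 3 lay above 0 with a median of -0.245, made of -0.13 in fat and 0.13 in brain, where 20 of the 23 lay above 0. Of 19 endothelial and pericyte markers 3 lay above 0 with a median of -0.21, made of -0.04 in fat and 0.19 in brain, where 18 of the 19 lay above 0. In each of these 2 lists 2 genes (8.7% and 10.5%) were lower at an unadjusted p below 0.05, close to the 9.16% of all genes. Neither edgeR nor DESeq2 called a member of the fibroblast, macrophage or endothelial lists. Of 20 mammary genes 2 lay above 0 with a median of -1.31, which was -0.73 without s443 and -1.07 without s540. None of the 20 passed in edgeR or DESeq2. At an unadjusted p below 0.05, 6 (30%) were lower, and 3 without s540. Csn2 was at 0 in 4 of the 7 CP2 fat libraries. The skeletal muscle score ran from 0.967 to 9.34 in vehicle fat and from 0.666 to 7.90 in CP2 fat. The part of these cells in the collagen and immediate early results was not tested. In brain the choroid plexus score was 3.15 to 5.8 with vehicle and 2.53 to 6.43 with CP2. The striatum score was 5.72 to 7.2 and 5.35 to 7.44, and the thalamus and hypothalamus score 2.45 to 4.48 and 2.11 to 4.88. The brain change was above 0 for 12 of 12, 1 of 15 and 5 of 20 of these markers, against 11184 of 22012 genes. The part of brain regions in the brain changes was not tested.

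Of 20 integrated stress response genes 9 lay above 0 with a median of -0.10, and none passed in edgeR or DESeq2, with 1 higher and 1 lower at an unadjusted p below 0.05. Gdf15 (-0.77 ± 0.85, adjusted p = 0.769) and Fgf21 (-1.16 ± 1.12, adjusted p = 0.719), hormones released under mitochondrial stress, did not pass. Of 23 NRF2 and antioxidant genes 17 lay above 0 with a median of 0.14, and none passed in edgeR, with 5 at an unadjusted p below 0.05 and 2 called by DESeq2. Prdx3, the mitochondrial peroxiredoxin, was at 0.53 ± 0.13 (adjusted p = 0.0774), and Sod1 at 0.44 ± 0.11 (adjusted p = 0.0926). Both passed without s540. Of 16 senescence and cell cycle arrest genes 4 lay above 0 with a median of -0.28, and none passed in edgeR or DESeq2. Of these 16, 2 (12.5%) were lower at an unadjusted p below 0.05, against 9.16% of all genes. Of 20 cell cycle genes 3 lay above 0 with a median of -0.26, and none passed in edgeR or DESeq2 or had an unadjusted p below 0.05. The sexes went opposite ways, with a median of 0.24 and 13 above 0 in males, and -0.73 and 0 above 0 in females. With the L number as a term the averaged median was 0.37. Of 32 cytosolic ribosome genes 20 lay above 0 with a median of 0.03, and none passed in edgeR or DESeq2. Their median was 0.21 in males, with 30 above 0, and -0.16 in females, with 2 above 0. No gene in the table passed edgeR's test of the sex difference.

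By sex, 577 genes (2.62%) passed in males, 98 higher in fat (0.445%) and 479 lower (2.18%), and 0 genes (0%) passed in females. In females 1140 genes had an unadjusted p below 0.05, the smallest adjusted p was 0.0942, limma-voom called 0 and DESeq2 called 25. For the female minus male difference edgeR called 0 genes (0%), with 1675 at an unadjusted p below 0.05 and a smallest adjusted p of 0.397, while limma-voom called 0 and DESeq2 called 52. A difference between the sexes was therefore not shown by edgeR. The 479 lower calls in males held 355 genes (74.1%) that were at least 10 times higher in brain than in the other 15 fat libraries, against 2981 such genes (13.5%) among all those tested. Without s540 there were 212 male calls (0.963%), 96 higher (0.436%) and 116 lower (0.527%), and 41 of the 116 (35.3%) were such genes. The excitatory synapse list had a male median of -3.28 with s540 and -0.65 without it.

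Me1, Pdk1 and Elovl6 were among the male calls that also passed without s540. Me1, malic enzyme, which makes NADPH for fatty acid synthesis, was 179 to 344 CPM in male vehicle fat and 321, 706, 1500 and 4640 CPM in male CP2 fat. Its male difference was 2.93 ± 0.53 (edgeR adjusted p = 0.00897) and its female difference -0.00 ± 0.56. Pdk1 in male fat was 58.6 to 92.1 CPM with vehicle and 125 to 149 CPM with CP2 without overlap, with a male difference of 0.82 ± 0.14 (adjusted p = 0.00897) and a female one of 0.11 ± 0.15. Elovl6 was at 4.62 ± 0.71 in males (adjusted p = 0.00818). In females the smallest p belonged to Ido1, which opens the kynurenine pathway, at 4.61 ± 0.85 (adjusted p = 0.0942). Ido1 was 0.834 to 8.08 CPM in female vehicle fat and 6.87, 12.2 and 86.4 CPM in female CP2 fat. Slc27a2, a very-long-chain acyl-CoA synthetase, was at 3.47 ± 0.75 in females (adjusted p = 0.15) and -0.01 ± 0.69 in males.

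The 37 genes of the mitochondrial genome had 0 reads in every library of the table, so that the subunits encoded there could not be compared directly. The nuclear genome holds old copies of mitochondrial DNA, and 15 tested genes matched a mitochondrial transcript of GENCODE M21 (GRCm38) at 90% identity or more over at least 100 bases. This group was chosen after its values were seen. A run of 7 of them lies side by side on chromosome 1 at 24611535-24616197. For 5 of the 15, every stretch of 101 bases, the length of a read, is identical to the mitochondrial transcript, and for 5 others no such stretch is. The start of Gm10222 and of mt-Nd4l, which encodes a complex I subunit, shows an identical pair. The start of Gm13340 and of mt-Co1, a complex IV subunit, shows a pair with 3 differing bases, in capitals. The first 101 bases of each transcript are printed 5′ to 3′.
Gm10222: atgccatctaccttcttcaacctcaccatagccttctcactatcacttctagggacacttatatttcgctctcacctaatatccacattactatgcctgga
mt-Nd4l: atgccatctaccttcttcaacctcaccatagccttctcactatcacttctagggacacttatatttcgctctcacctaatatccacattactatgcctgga
Gm13340: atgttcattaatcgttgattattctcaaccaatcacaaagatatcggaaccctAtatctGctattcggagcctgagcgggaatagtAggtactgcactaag
mt-Co1: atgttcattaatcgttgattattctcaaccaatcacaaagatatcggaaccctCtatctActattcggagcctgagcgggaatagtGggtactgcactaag

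All 15 copies had a positive fat minus brain difference, from 0.09 to 1.37 with a median of 0.81, beside 40.0% of all tested genes. The lowest, Gm11408, had means of 0.15 CPM in brain and 0.065 CPM in fat, and its 0.09 ± 0.65 rests on few reads. Copies on chromosomes 2 and 4 also lie near each other, so the 15 are not separate observations. The median change was 0.54 in fat and -0.28 in brain. In brain 14 of 15 copies were below 0, while 11184 of 22012 tested genes were above 0. Gm10222, identical to mt-Nd4l, was 2.31 to 6.71 CPM in vehicle fat and 5.94 to 20.2 CPM in CP2 fat, and 5.99 to 12.5 CPM against 4.8 to 7.85 CPM in brain. Its difference was 1.37 ± 0.29 (edgeR adjusted p = 0.0458). Gm28439, identical to mt-Nd4, another complex I subunit, was at 0.997 ± 0.22 (adjusted p = 0.0459). No other copy passed with all libraries, and 9 passed without s540. Gm13340, 97.6% identical to mt-Co1, was at 0.79 ± 0.19 (adjusted p = 0.0722).

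Summed over the 15 copies, the level was 753 to 1895 CPM (median 1194) in vehicle fat and 1246 to 2043 CPM (median 1604) in CP2 fat. In brain it was 1307 to 2467 CPM (median 1731) with vehicle and 999.3 to 1761 CPM (median 1393) with CP2. The ranges overlapped in both tissues, and the highest vehicle fat library was s540. Reads of an identical copy and of the mitochondrial genome cannot be told apart, and how the counting treated reads that map to both is not given in the sources used here.

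**Figure D5:**
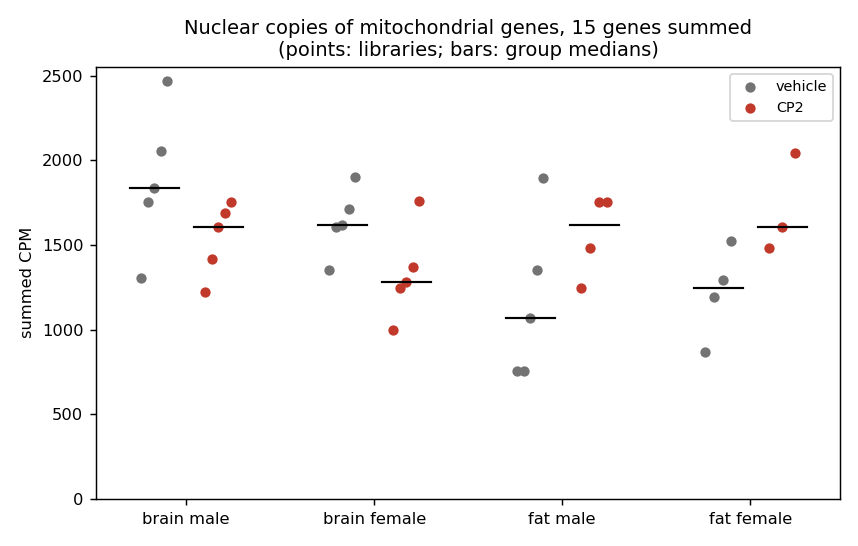
Summed CPM of the 15 nuclear copies of mitochondrial genes in every library (points; vehicle grey, CP2 red) with the group median (bar); the axis starts at 0. The group medians are higher with CP2 in male and female fat and lower with CP2 in male and female brain, with overlapping libraries.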

How the data were processed

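RNA was extracted from flash frozen tissue with Trizol and the miRNeasy kit, and TruSeq RNA v2 libraries from 200 ng were read as paired 101-base reads on a HiSeq instrument, per the labels' protocols. The submitters' processing notes name bcl2fastq, STAR 2.6.1c, Subread, featureCounts and mm10. Neither the gene annotation release nor strandedness, read filters and treatment of multi-mapped reads is stated there. The authors deposited raw gene counts, which were used, and beside them FPKM values (per kilobase and library size), which were not used.

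Counts were fitted with edgeR 4.0.16 (R 4.3.3) by robust quasi-likelihood over the 8 groups of tissue, sex and treatment in 36 libraries, after filterByExpr and TMM scaling, with Benjamini-Hochberg adjustment over 22012 genes and a threshold of 0.05. The spread was shared between tissues. The fit was also run on counts simulated with a spread shared by both tissues and with the spread of each tissue. The outcome is not given here, so that run is no check on the calls. DESeq2 1.42.0, limma-voom (limma 3.58.1), other scalings and filters, separate fits per tissue, the L number, the number in the title and leaving out each library were alternatives.

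Named genes were the 10 smallest p-values in each direction at 1 CPM or more in both tissues, the 5 smallest in each direction below that, the 5 smallest per direction by sex, up to 4 per list and preset role genes. The members and lists were chosen with earlier results of these data known.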

Additional observations from a re-analysis of the deposited data

Results flagged for a closer look

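Of 231 groups of 4 or more libraries tested with Dixon's criterion, 17 held a library far from the others, and chance flags about 1 group in 20. In fat male vehicle s540 the score of excitatory synapse genes was 5.41 against 1.84 to 2.01 in the other libraries of its group, and that of oligodendrocyte and myelin genes was 5.01 against 1.86 to 2.19. Src in s540 was 27.3 CPM against 18.2 to 20.7 CPM. In fat female vehicle s443, Src was 40.3 CPM against 17.7 to 19.3 CPM and Hk1 was 66.3 CPM against 47.2 to 49.9 CPM.

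The adipocyte score was low in fat male vehicle s551, at 9.7 against 10.1 to 10.3, and in fat male CP2 s530, at 9.36 against 10.3 to 10.4. Mest was 1160 CPM in fat male vehicle s552 against 25.3 to 288 CPM, and 23.8 CPM in fat male CP2 s571 against 2.81 to 3.38 CPM. Elovl6 was 61.3 CPM in fat female vehicle s643 against 22.9 to 28.1 CPM. Plk3 was 7.42 CPM in fat female vehicle s442 against 5.84 to 6.11 CPM. Gm10222 was 20.2 CPM in fat male CP2 s612 against 6.13 to 7.7 CPM.

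In brain, Ndufa6 was 93 CPM in male vehicle s620 against 65.1 to 70 CPM and 78.5 CPM in male CP2 s571 against 64.6 to 67.7 CPM. Female CP2 s491 was low for Acadvl, at 48.8 CPM against 55.6 to 57.9 CPM, and for Kcnk3, at 17.6 CPM against 22.1 to 23.4 CPM. Synpo2 was 22.1 CPM in brain male CP2 s530 against 12.7 to 14.2 CPM.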

How the results depend on the processing

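The number of genes with a different CP2 effect in fat and brain depended on the model. Averaged over the sexes it was 34, and it was 405 with DESeq2 (173 higher, 232 lower), 70 with TMM within each tissue, 87 among genes at 1 CPM or more in both tissues, 9 with no low-count filter, 3 with limma-voom, 2 with separate tissue fits and 1 with the L number as a term. In males the 577 became 889 with DESeq2, 133 with no low-count filter, 20 with limma-voom, 2 with separate fits and 1 with the L number. TMM within each tissue gave 163 higher and 398 lower in males, against 98 and 479. DESeq2 called 25 genes in females and 52 for the sex difference, where edgeR called 0 of each. Alternatives chosen after seeing the data gave 87 and 278 (averaged and males) without s540 and s443, 2 and 14 with separate fits without s540, and 38 (32 higher, 6 lower) and 29 with limma-voom without s540. The causes were not tested.

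With the number in the title as a replicate block, 0 genes passed averaged and 0 in males. Over the 8 numbers present in both tissues the correlation of deviations ran from -0.0448 to 0.265, 2 of 8 were above 0.1 and 2 matched their own number best, so the block is given as a value only.

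Leaving out each of the 36 libraries in turn gave 1 to 279 genes averaged, 62 to 1253 in males, 0 to 8 in females and 0 to 1 for the sex difference. The averaged count was within 1.5 times in 3 cases, lower in 26 and higher in 7. It was 68 without fat s643, 83 without s463, 90 without fat s571, 95 without fat s551, 158 without s540, 207 without fat s621 and 279 without fat s530, 1 without s451, and lay between 7 and 19 for the other 25 below.

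Of 11762 values of single genes under other settings, 10565 stayed on the same side of the threshold, 891 were no longer called, 248 were newly called, 58 moved in size and none reversed. Every library held 35 M counts or more.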
